A study of Mus musculus with 24 samples.

Results

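Transcripts of the PPAR receptors, of their RXR partners and of the coregulators that act with them were followed in mouse liver after a beta3 adrenergic agonist, with or without PPARα in hepatocytes. The set comprised 10 genes, of 37074 gene names on the array, and was defined by gene name: Ppara, Ppard, Pparg, Rxra, Rxrb, Rxrg, Ppargc1a, Ppargc1b, Ncor1 and Med1. Every probe that carried a listed name was read, which gave 27 probes, and 25 of them passed a filter on dim signal, with at least 1 probe for each of the 10 genes. The 24 male C57Bl/6J mice fell into 4 groups of 6, with 1 single-colour array of total liver RNA per mouse. By the series title, LWT livers had PPARα in their hepatocytes and LKO livers lacked it there. The labels name neither the Cre line nor the exons removed. The beta3 agonist CL316243 was given at 3 mg/kg by gavage in 0.5% carboxymethyl cellulose at Zeitgeber time 10 h, and control mice of both genotypes received the vehicle alone. Livers were taken at Zeitgeber time 16 h from mice with free access to a standard diet, and the labels give no age. The comparisons address how beta3 activation changes the level of these receptors and cofactors and how far that change differs without hepatocyte PPARα.

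PPARs are nuclear receptors that bind fatty acids and act on DNA as heterodimers with a retinoid X receptor, at paired AGGTCA repeats. Without ligand they can hold corepressor complexes built on NCoR1 and histone deacetylase 3, and with ligand they recruit coactivators such as the PGC-1 proteins and the Mediator complex, which MED1 contacts. In liver, PPARα drives fatty acid oxidation and ketogenesis in fasting, when adipose tissue releases fatty acids, and PGC-1α is a cofactor of fasting that serves gluconeogenesis and mitochondrial genes.

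Levels are given as log2 of the background-subtracted intensity minus the array's 75th percentile, so that a value of 0 lies at that percentile. Levels of different probes are not comparable with each other, and each gene is described by its brightest kept probe unless another is named. A difference was called when its adjusted p in limma, Benjamini-Hochberg adjusted over all 21331 genes tested, lay below 0.05. The 75th percentile of intensity ranged from 397 to 578 across arrays, and 26985 to 34202 of 56605 probes per array were well above background. No spot was saturated. Each of 3 slides held 2 mice of every group. CL316243 replicate 3 of LKO stood apart, with a mean correlation of 0.972 with the other mice of its group against at least 0.984 in the other groups, and CL316243 replicate 1 of LWT had the fewest probes well above background. Results that rest on these 2 mice are given with and without them. Summed hepatocyte markers (6 of 6 tested, among them Alb and Apob) ranged from 2661 to 2897 times the 75th percentile in LWT vehicle, 2761 to 3409 in LWT CL316243, 2639 to 3349 in LKO vehicle and 2625 to 3510.2 in LKO CL316243. With CL316243, 0 of these 6 were called in LWT. In LKO Apob rose (0.22, adjusted p 0.0478 in limma) and Apoa1 fell (-0.25, adjusted p 0.0307). With CL316243, markers of other cells that passed included Sox9 of cholangiocytes (1.47 in LWT and 2.18 in LKO, 1 of 4 markers called), Lyve1 of endothelial cells (1.18 and 2.39) and the neutrophil genes S100a8 (1.48 and 2.30) and S100a9 (1.44 and 2.25). The summed neutrophil and lymphocyte markers (5 of 6 tested) ranged from 9.39 to 11.6 in LWT vehicle, 9.50 to 19.1 in LWT CL316243, 8.79 to 11.4 in LKO vehicle and 9.72 to 49.2 in LKO CL316243. The 10 Kupffer cell markers summed to 60.2 to 124, 69.7 to 134, 66.6 to 114 and 61.3 to 112 in the same order of groups. Of 6 stellate cell markers 1 rose and 1 fell in LWT and 2 rose in LKO. The part of these cells in the results was not tested. In whole liver, fewer cells of a type and less RNA per cell cannot be told apart.

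CL316243 changed 5 of the 10 genes in LWT, where 38.3% of all genes tested were called, and 6 of the 10 in LKO, where 40.3% were. Counts of that size lie near those shares. The response to CL316243 differed between genotypes for 4 of the 10 (Ppara, Pparg, Ppargc1a and Ppargc1b), where 5.41% of all genes were called; 2 responses were higher in LKO (2.17% of all genes) and 2 lower (3.24%). Under vehicle 0 of the 10 differed between genotypes by limma, against 1.18% of all genes, and 1 of the 10 (Ppara) had an unadjusted p below 0.05. With CL316243 5 of the 10 differed, against 15.9% of all genes: 2 were higher in LKO (Pparg and Ppargc1a, against 7.74%) and 3 lower (Ppara, Rxrg and Ppargc1b, against 8.17%). In LWT 3 genes rose (Ppara, Rxrb and Ncor1, against 18.9% of all genes) and 2 fell (Ppard and Ppargc1a, against 19.4%). In LKO 2 rose (Pparg and Ncor1, against 20.9%) and 4 fell (Ppara, Ppard, Rxrg and Ppargc1b, against 19.4%). An alternative chosen after seeing the data left out both LKO CL316243 replicate 3 and LWT CL316243 replicate 1. It called 5, 6, 5 and 5 of the 10 in LWT, in LKO, between the responses and between genotypes with CL316243. Both genotype contrasts share their groups with the treatment contrasts, so the 5 comparisons are not independent.

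**Figure D1:**
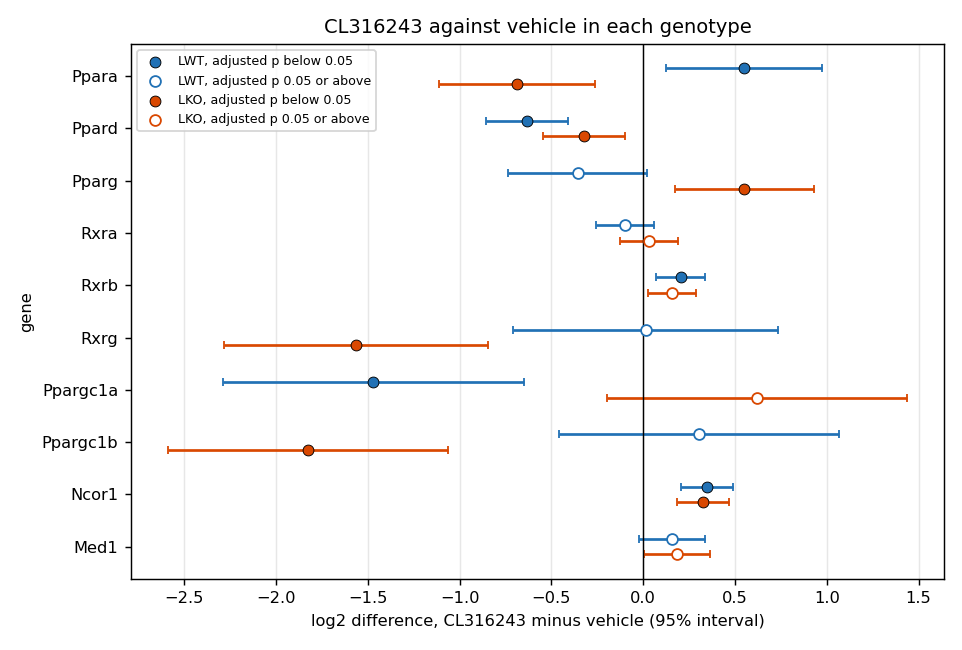
Log2 difference between CL316243 and vehicle (x axis) for each of the 10 genes (y axis), in LWT mice (blue) and LKO mice (orange), 6 mice per group. Points are limma estimates, bars 95% intervals, and filled points have an adjusted p below 0.05; 6 genes have estimates on opposite sides of 0 in LWT and LKO, of which Ppara, Pparg, Ppargc1a and Ppargc1b passed the test of the difference and Rxra and Rxrg did not.

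Among the receptors, Ppara is the gene deleted in hepatocytes of LKO mice, and its transcript fell with CL316243 in LKO and rose in LWT. In LWT its level was 5.45 to 5.93 (median 5.66) with vehicle and 5.70 to 6.42 (median 6.35) with CL316243. In LKO it was 4.81 to 5.18 (median 5.01) with vehicle and 3.06 to 4.85 (median 4.51) with CL316243. The levels of all 12 LKO mice lay below those of all 12 LWT mice; groups of the genotypes did not overlap for 1.8% of all genes under vehicle and 6.57% with CL316243. The order of the group means was LWT CL316243, LWT vehicle, LKO vehicle and LKO CL316243, with overlap between treatments in each genotype. CL316243 changed Ppara by 0.55 (SE 0.20, adjusted p 0.0377) in LWT and by -0.69 (SE 0.20, adjusted p 0.01) in LKO. The responses differed by -1.23 (SE 0.29, adjusted p 0.012). The LWT rise was called in 3 of 12 fits that each left out 1 mouse; it was lost without any of vehicle replicates 2, 3, 4 or 5 or CL316243 replicates 1, 2, 4, 5 or 6, with estimates of 0.50 to 0.56 and adjusted p of 0.0544 to 0.0745. It was also lost after quantile normalization (0.47, adjusted p 0.0896), centring on the median (0.52, adjusted p 0.0627) and with no filter on dim probes (adjusted p 0.0724). The series table of the authors (0.47, adjusted p 0.0771) and an added 1.5-fold change lost it too. Of 17 alternatives other than a single mouse left out, 12 called it. The LKO difference was -0.43 without CL316243 replicate 3 (adjusted p 0.00761), and the difference of responses was then -0.98 (adjusted p 0.000655). Within the 3 slides the difference of responses was -1.99, -0.62 and -1.10.

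Both Ppara probes are on chromosome 15 in build mm9, which holds for every probe position given here, at 85632110 to 85632169 and 85637193 to 85637252, and read bases from 2273 and from 7356 of the Ppara transcript in the array's annotation. Whether the bases they read are still transcribed from the deleted allele is not given by the labels, so the probes may not check the genotype. The distal probe lay at 4.18 to 4.69 (median 4.41) in LWT vehicle, 4.51 to 5.28 (median 5.18) in LWT CL316243, 3.31 to 3.73 (median 3.46) in LKO vehicle and 1.81 to 3.53 (median 3.13) in LKO CL316243. On this probe too, every LKO mouse lay below every LWT mouse. Among all kept probes, CL316243 changed the distal probe by 0.63 (SE 0.20, adjusted p 0.0152) in LWT and by -0.54 (SE 0.20, adjusted p 0.0344) in LKO. Exact two-sided permutation tests of the treatment groups gave p = 0.00649 and 0.00433 in LWT for the proximal and distal probe. In LKO they gave 0.00433 and 0.0173. Tested over every kept probe, the distal probe differed between genotypes under vehicle by -0.92 (SE 0.20, adjusted p 0.0188), the only one of the 25 probes called there, against 1.11% of all probes. In that test the proximal probe differed by -0.68 (SE 0.20, adjusted p 0.151), and an exact permutation test of the 12 vehicle mice gave p = 0.00216 for each probe, two-sided and the smallest that 924 splits allow. With CL316243 the LKO level was 3.76-fold lower, a log2 difference of -1.91 (SE 0.20, adjusted p 3.6e-07).

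**Figure D2:**
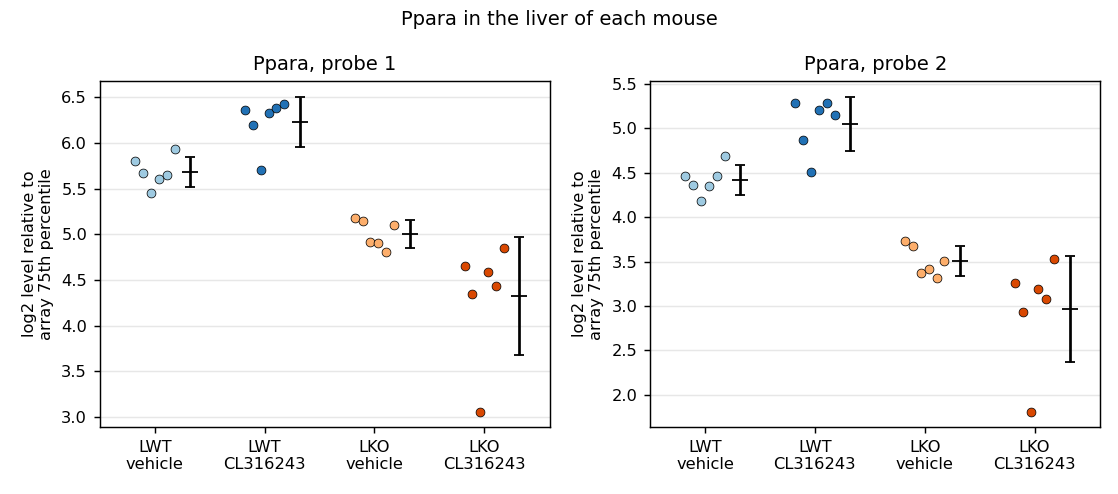
Log2 level of each Ppara probe relative to the array's 75th percentile (y axis) in the 4 groups (x axis); each point is 1 of 6 mice per group, and the black bar is the mean with its SD. The 12 LKO mice lie below the 12 LWT mice on both probes, and CL316243 replicate 3 of LKO is the lowest point on each.

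The Ppara promoter is shown because the transcript responded in opposite directions, and 9 of the 10 genes had a promoter in the RefSeq table (build GRCm38.p6), with 15 start sites in all. These are the 250 bases before the Ppara start, at chr15:85735526-85735775 on the plus strand, 5′ to 3′. Capitals mark the match to TGACG, the core of the cAMP response element, at 222 to 218 bases before the start.
Ppara: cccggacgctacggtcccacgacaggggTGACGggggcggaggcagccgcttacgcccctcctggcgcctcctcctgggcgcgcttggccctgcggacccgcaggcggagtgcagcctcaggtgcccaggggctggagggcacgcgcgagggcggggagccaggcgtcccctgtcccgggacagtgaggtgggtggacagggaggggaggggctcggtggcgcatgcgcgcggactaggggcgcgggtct
Windows of 250 bases were searched on both strands for TGACGTCA, the full cAMP response element, its core TGACG, the paired repeat of the PPAR-RXR site (AGGTCA, any 1 base, AGGTCA), the single repeat AGGTCA that lies inside it, and CACGTG, the E-box. The full element, the paired repeat and the E-box matched 0 of the 15 windows. Of all 32817 promoter windows in the table, 1.55%, 0.0335% and 6.02% held them. TGACG was found before 3 of the 15 starts (Ppara, Rxrb and Ppargc1a) and in 17.7% of all windows, and AGGTCA before 4 starts of 3 genes (Pparg, Rxra and Rxrg) and in 14% of all windows. A match describes the letters only, and no binding was measured.

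Pparg encodes PPARγ, the receptor that drives adipocyte differentiation and lipid storage and whose level in liver is low in lean animals. It was higher with CL316243 in LKO and not called in LWT. In LWT it lay at 0.73 to 1.61 (median 1.30) with vehicle and 0.46 to 1.34 (median 0.79) with CL316243. In LKO it lay at 0.97 to 1.76 (median 1.45) with vehicle and 1.51 to 2.41 (median 2.10) with CL316243. All 6 LKO mice given CL316243 lay above all 6 LWT mice given it, and these groups did not overlap for 6.57% of all genes. Both vehicle groups overlapped. The change with CL316243 was -0.36 (SE 0.18, adjusted p 0.129) in LWT and 0.55 (SE 0.18, adjusted p 0.0191) in LKO. Between genotypes the level with CL316243 differed by 1.12 (SE 0.18, adjusted p 0.000119), a 2.17-fold higher level in LKO. The responses differed by 0.91 (SE 0.26, adjusted p 0.0397), and within slides by 0.82, 1.07 and 0.84.

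That difference of responses was close to the threshold. Its adjusted p was 0.0514 with slide as a block, 0.055 with slide and row, 0.067 with centring on the median and 0.0874 with no filter on dim probes, and it remained called in 8 of 24 fits without 1 mouse, over which it ranged from 0.81 to 1.01 (adjusted p 0.0199 to 0.0743). The call was lost without any of vehicle replicates 1, 2, 4 or 6 or CL316243 replicates 2, 3, 5 or 6 of LWT, and without any of vehicle replicates 3, 4, 5 or 6 or CL316243 replicates 2, 4, 5 or 6 of LKO. The rise of Pparg in LKO was not called without vehicle replicate 3 (0.46, adjusted p 0.0547) or CL316243 replicate 6 (0.47, adjusted p 0.0502). Markers of adipocytes, the cells richest in PPARγ, were set beside it. Of 6 adipocyte markers 5 were tested (Adipoq did not pass the filter), and Fabp4, which PPARγ also induces, rose in LWT and in LKO while the other 4 were not called with CL316243 in either. Their summed level ranged from 2.41 to 4.27 times the 75th percentile in LWT vehicle, 4.38 to 32.7 in LWT CL316243, 2.11 to 3.06 in LKO vehicle and 4.05 to 9.24 in LKO CL316243. Fabp4 had a mean log2 level of 0.92 and 3.78 in LWT with vehicle and CL316243, and of 0.81 and 2.44 in LKO. In LKO compared with LWT, Fabp4 was lower with CL316243 (-1.34, adjusted p 0.00971), and Cfd was lower with vehicle (-3.61, adjusted p 0.0145) and with CL316243 (-2.34, adjusted p 0.0394). Mean log2 levels of Cfd with vehicle and CL316243 were -1.60 and -2.57 in LWT, and -5.20 and -4.92 in LKO. The signal in LKO was dim, so the size of the Cfd differences is uncertain. The part of these cells in the Pparg result was not tested.

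The Pparg probe is on chromosome 6 at 115440213 to 115440272. A further Pparg probe, at 115413557 to 115413616 and designed on another Pparg sequence, was well above background in 2 of 24 mice (1 LKO vehicle and 1 LKO CL316243) and was not fitted. RefSeq gives 3 Pparg starts, and the 250 bases before 2 of them hold a single AGGTCA, in capitals below. They lie at chr6:115360894-115361143 and chr6:115362099-115362348 (GRCm38.p6, plus strand, 5′ to 3′) and are shown to set the windows against each other; neither holds the paired repeat.
Pparg, start 1: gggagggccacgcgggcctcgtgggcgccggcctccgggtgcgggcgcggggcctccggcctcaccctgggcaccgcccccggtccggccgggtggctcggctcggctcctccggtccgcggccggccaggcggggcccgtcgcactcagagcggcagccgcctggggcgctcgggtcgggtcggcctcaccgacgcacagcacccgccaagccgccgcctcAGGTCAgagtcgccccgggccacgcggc
Pparg, start 2: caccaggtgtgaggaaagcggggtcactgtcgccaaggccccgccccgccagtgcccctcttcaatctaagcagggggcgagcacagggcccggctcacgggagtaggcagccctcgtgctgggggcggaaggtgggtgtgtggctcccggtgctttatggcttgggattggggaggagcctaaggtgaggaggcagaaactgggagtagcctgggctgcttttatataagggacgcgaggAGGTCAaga
The match lies 28 to 23 bases before the start in the upper sequence and 9 to 4 bases before it in the lower.

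Ppard encodes PPARδ, a broadly expressed receptor for fatty acids, and it fell with CL316243 in both genotypes. In LWT it lay at -0.30 to 0.23 (median 0.00) with vehicle and -0.71 to -0.55 (median -0.64) with CL316243. In LKO it lay at -0.43 to 0.33 (median -0.12) with vehicle and -0.60 to -0.14 (median -0.41) with CL316243. The LWT groups did not overlap, as in 20.4% of all genes, and the LKO groups did. The difference was -0.63 (SE 0.11, adjusted p 7.85e-05) in LWT and -0.32 (SE 0.11, adjusted p 0.0209) in LKO. The LKO fall was not called without vehicle replicate 3 (-0.28, adjusted p 0.0558), vehicle replicate 6 (-0.24, adjusted p 0.0608) or CL316243 replicate 4 (-0.28, adjusted p 0.0501), or with the LKO groups fitted alone (adjusted p 0.0692). The responses differed by 0.31 (SE 0.15, adjusted p 0.281), with a 95% interval of -0.00 to 0.63, so a difference between genotypes was not called. The probe is on chromosome 17 at 28438298 to 28438357.

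The RXR partners moved less, with the exception of Rxrg. Rxra, the main RXR of hepatocytes, lay at 7.09 to 7.54 (median 7.34) and 7.05 to 7.36 (median 7.28) in LWT with vehicle and CL316243, and at 7.11 to 7.31 (median 7.21) and 7.07 to 7.39 (median 7.27) in LKO. All 4 groups overlapped, and CL316243 gave -0.10 in LWT (95% interval -0.26 to 0.06, adjusted p 0.336) and 0.03 in LKO (-0.13 to 0.19, adjusted p 0.777). A dimmer Rxra probe, on chromosome 2 at 27615316 to 27615375 where the brighter lies at 27618345 to 27618404, gave -0.22 (SE 0.09, adjusted p 0.0482) in LKO among all kept probes. Rxrb differed with CL316243 by 0.20 (SE 0.06, adjusted p 0.0139) in LWT and by 0.16 (SE 0.06, adjusted p 0.0516) in LKO, and only the first passed. Its LWT rise was not called after quantile normalization (0.16, adjusted p 0.0552) or centring on the median (0.18, adjusted p 0.0606). The 2 dimmer Rxrb probes gave opposite signs in the genotypes (0.19 and 0.29 in LWT, -0.20 and -0.18 in LKO), and for the third probe the responses differed by -0.47 (SE 0.13, adjusted p 0.0381), so the Rxrb probes disagreed on the interaction. These 2 probes span 175 and 262 bases of genome, that is, they read across a splice junction.

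Rxrg, an RXR known mainly from muscle and brain, was lower with CL316243 in LKO. In LWT it lay at -0.03 to 1.20 (median 0.84) with vehicle and 0.22 to 1.60 (median 0.68) with CL316243. In LKO it lay at 0.60 to 1.06 (median 0.93) with vehicle and -2.29 to 0.45 (median -0.70) with CL316243. The LKO groups did not overlap, as in 20.8% of all genes, and the LWT groups did. CL316243 changed Rxrg by -1.56 (SE 0.35, adjusted p 0.00109) in LKO, a 2.96-fold fall, and by 0.01 in LWT (95% interval -0.71 to 0.73, adjusted p 0.982). Without CL316243 replicate 3 the LKO difference was -1.24 (adjusted p 0.00203). The responses differed by -1.58 (SE 0.49, adjusted p 0.0647), which did not pass, so the genotypes were not shown to respond differently. It passed without LWT CL316243 replicate 3 (-1.70, adjusted p 0.0494), LKO CL316243 replicate 4 (-1.80, adjusted p 0.0254) or LKO CL316243 replicate 6 (-1.78, adjusted p 0.0296). With both LKO CL316243 replicate 3 and LWT CL316243 replicate 1 left out it passed as well (-1.37, adjusted p 0.043). It also passed after normexp background correction (-1.33, adjusted p 0.0498), with array weights (-1.32, adjusted p 0.0211) and in the series table (-1.43, adjusted p 0.049). With CL316243 the level in LKO was lower, a log2 difference of -1.48 (SE 0.35, adjusted p 0.0046). That call was lost with only these groups in the fit (adjusted p 0.0515). Within slides it was -3.21, -0.72 and -0.49, and the difference of responses -3.56, -0.62 and -0.55. A single probe read Rxrg, on chromosome 1 at 169569624 to 169569683.

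Of the PGC-1 coactivators, Ppargc1a fell with CL316243 in LWT and Ppargc1b fell in LKO. Ppargc1a encodes PGC-1α, the cofactor of mitochondrial biogenesis and gluconeogenesis, whose gene is a known target of CREB downstream of cAMP. In LWT its level was -0.48 to 1.08 (median 0.35) with vehicle and -1.88 to 0.77 (median -1.50) with CL316243. In LKO its level was -0.51 to 0.19 (median -0.06) with vehicle and -0.79 to 1.65 (median 0.41) with CL316243. In LWT 5 of 6 mice given CL316243 lay at -1.26 or lower, below every vehicle mouse, and replicate 1 lay at 0.77, among the vehicle mice. The LKO groups overlapped. CL316243 changed Ppargc1a by -1.47 (SE 0.40, adjusted p 0.00513) in LWT, a 2.77-fold fall, and the LKO difference of 0.62 (SE 0.40, adjusted p 0.221) did not pass. The responses differed by 2.09 (SE 0.56, adjusted p 0.0282). With CL316243 the level was 3.15-fold higher in LKO than in LWT, a log2 difference of 1.66 (SE 0.40, adjusted p 0.00505), with overlap through replicate 1 of LWT.

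Without replicate 1 the LWT difference of Ppargc1a was -1.86 (adjusted p 0.000119) and the difference of responses 2.48 (adjusted p 0.00134). The call of that difference was lost without LWT vehicle replicate 3 (1.94, adjusted p 0.0512), LWT CL316243 replicate 2 (2.02, adjusted p 0.0502), LWT CL316243 replicate 5 (adjusted p 0.052) or LKO CL316243 replicate 2 (1.95, adjusted p 0.053). With no filter on dim probes its adjusted p was 0.061. Within slides the difference of responses was 3.77, 2.09 and 0.42, of 1 sign but unequal size, and the slide with the smallest value held replicate 1 of LWT CL316243. The LKO difference with CL316243 was 0.39 without LKO replicate 3 (adjusted p 0.47) and lay at 1.70, 0.13 and 0.03 within slides.

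Both Ppargc1a probes gave this pattern. The brighter is on chromosome 5 at 51848928 to 51848987 and the other at 51849419 to 51849478, on the minus strand. The latter is shown because its 60 bases read without a stop codon up to a final in-frame TAA, in capitals, and so it reads transcripts that hold this coding end (from the array's annotation, build mm9, 5′ to 3′).
Ppargc1a probe 2: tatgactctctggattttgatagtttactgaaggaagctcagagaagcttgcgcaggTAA
On this probe CL316243 gave -1.36 (SE 0.42, adjusted p 0.0147) in LWT and 0.78 (SE 0.42, adjusted p 0.151) in LKO, and the responses differed by 2.13 (SE 0.60, adjusted p 0.036). Its levels were -3.74 to -0.79 (median -3.45) in LWT CL316243 and -2.39 to -0.79 (median -1.76) in LWT vehicle. The promoter is shown because the gene responds to cAMP in other settings; these are the 250 bases before the RefSeq start at chr5:51567726-51567975 (GRCm38.p6, minus strand, 5′ to 3′), with TGACG on the opposite strand in capitals (read here as CGTCA), 49 to 45 bases before the start.
Ppargc1a: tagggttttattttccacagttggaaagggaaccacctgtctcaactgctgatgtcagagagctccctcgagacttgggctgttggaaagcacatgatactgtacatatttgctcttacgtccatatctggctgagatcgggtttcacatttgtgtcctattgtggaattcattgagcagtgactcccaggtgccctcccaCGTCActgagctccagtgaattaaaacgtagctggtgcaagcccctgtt
The full element TGACGTCA is not in this window, and no other part of the gene was searched.

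Ppargc1b encodes PGC-1β, a coactivator of mitochondrial genes and, with SREBP-1, of lipid synthesis. In LWT its level was 0.56 to 1.51 (median 0.93) with vehicle and 0.56 to 1.62 (median 1.33) with CL316243. In LKO its level was 0.35 to 1.23 (median 1.03) with vehicle and -3.29 to -0.06 (median -0.60) with CL316243. All 6 LKO mice given CL316243 lay below all other 18 mice, and the other 3 groups overlapped. Groups did not overlap for 20.8% of all genes between the LKO treatments and for 6.57% between genotypes with CL316243. CL316243 changed it by -1.83 (SE 0.37, adjusted p 0.000442) in LKO, a 3.55-fold fall, and the LWT difference was 0.30 (95% interval -0.46 to 1.07, adjusted p 0.557). The responses differed by -2.13 (SE 0.52, adjusted p 0.0163), and by -3.29, -1.42 and -1.68 within slides. CL316243 replicate 3 of LKO was far below the rest of its group; without it the LKO difference was -1.36 (adjusted p 3e-05) and the difference of responses -1.66 (adjusted p 0.000633). Both probes of Ppargc1b are on chromosome 18, at 61458252 to 61458311 and 61451467 to 61451526. The dimmer gave -2.05 (SE 0.43, adjusted p 0.000665) in LKO and -2.32 (SE 0.61, adjusted p 0.0247) for the difference of responses, with 23 of 24 mice well above background.

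**Figure D3:**
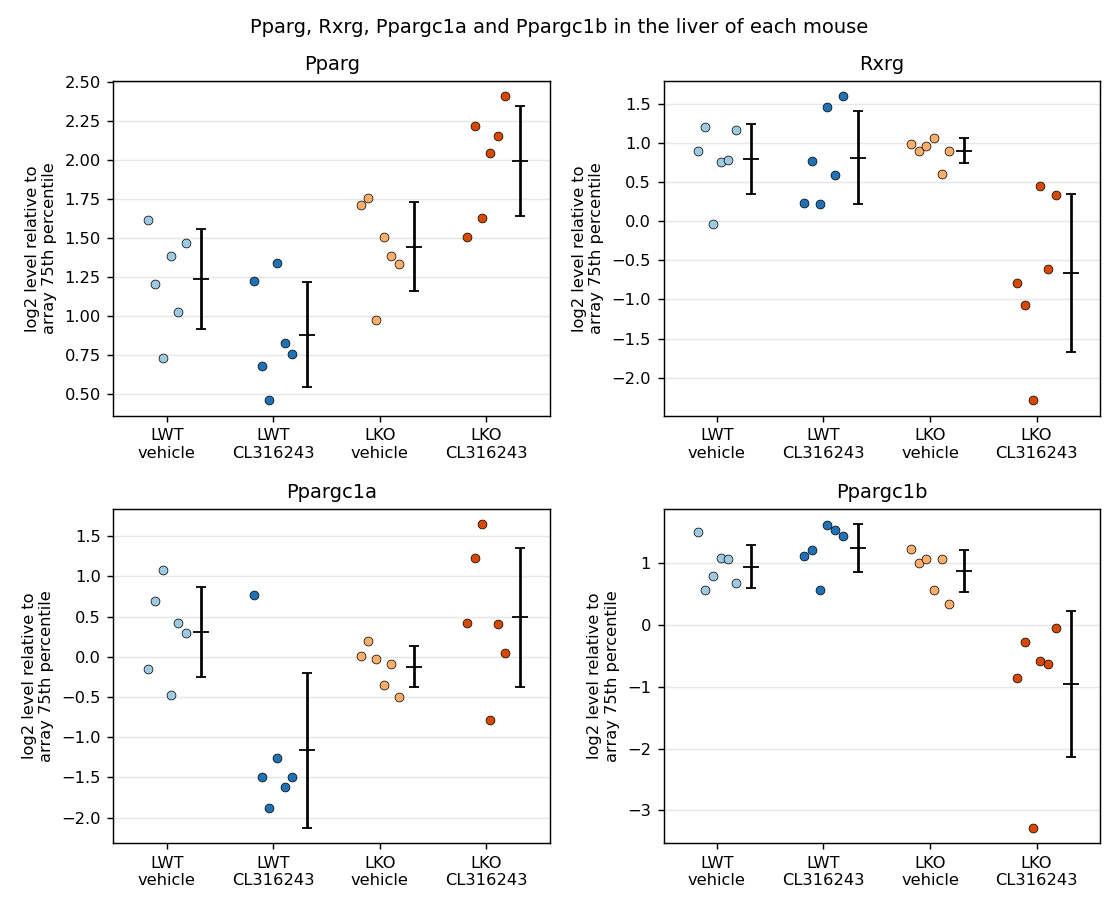
Log2 level relative to the array's 75th percentile (y axis) of Pparg, Rxrg, Ppargc1a and Ppargc1b in the 4 groups (x axis); each point is 1 of 6 mice per group, and the black bar is the mean with its SD. In LWT CL316243, 5 of 6 mice lie at -1.26 or lower for Ppargc1a and 1 at 0.77, and in LKO CL316243 replicate 3 is lowest for Ppargc1b at -3.29.

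Ncor1 encodes the corepressor that tethers histone deacetylase 3 to unliganded receptors, and it rose by a similar amount in both genotypes. In LWT it lay at 2.43 to 2.84 (median 2.58) with vehicle and 2.87 to 3.01 (median 2.99) with CL316243. In LKO it lay at 2.54 to 2.73 (median 2.64) with vehicle and 2.79 to 3.14 (median 2.96) with CL316243. In each genotype the groups did not overlap, as in 20.4% of all genes in LWT and 20.8% in LKO. The rise was 0.35 (SE 0.07, adjusted p 0.000321) in LWT and 0.33 (SE 0.07, adjusted p 0.000611) in LKO, 1.27-fold and 1.26-fold, and the responses differed by -0.02 (95% interval -0.22 to 0.18, adjusted p 0.939).

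Of 8 probes with the Ncor1 name on chromosome 11, 6 were designed on the strand of the gene, and these did not all give this rise. The representative probe, at 62130536 to 62130595, and those at 62131484 to 62132878 and 62180446 to 62180505 rose in both genotypes, and the probe at 62211860 to 62211919 rose in LWT by 0.25 (SE 0.10, adjusted p 0.0402) and did not pass in LKO, at 0.16 (SE 0.10, adjusted p 0.19). The probes at 62215226 to 62215285 and 62162905 to 62162964 were called in neither genotype. The other 2, at 62145208 to 62145267 and 62139812 to 62139871, were designed on clones that run on the opposite strand and need not read Ncor1. The former rose in LKO by 0.26 (SE 0.08, adjusted p 0.011), and the latter was well above background in 9 of 24 mice and was not fitted; its difference with CL316243 had an exact two-sided permutation p of 0.781 in LWT and 0.338 in LKO. Averaged over the 7 kept probes, the change was 0.16 in LWT (adjusted p 0.133), which was not called, and 0.23 in LKO (adjusted p 0.0291), which was. Over the 6 on the strand of Ncor1, an average chosen after seeing the data, it was 0.17 in LWT (adjusted p 0.125) and 0.22 in LKO (adjusted p 0.0471).

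Med1 encodes the Mediator subunit that nuclear receptors contact, and no comparison of it was called. Its level was 0.99 to 1.16 (median 1.11) and 1.0004 to 1.43 (median 1.26) in LWT with vehicle and CL316243, and 0.97 to 1.13 (median 0.99) and 0.88 to 1.51 (median 1.20) in LKO. The difference with CL316243 was 0.16 in LWT (95% interval -0.02 to 0.34, adjusted p 0.166) and 0.19 in LKO (0.01 to 0.37, adjusted p 0.0935), and it was called in LKO without CL316243 replicate 4 (0.25, adjusted p 0.015). Its 4 probes, on chromosome 11 between 98013580 and 98034597, gave differences of 0.12 to 0.30 in LWT and 0.13 to 0.23 in LKO, none of them called.

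**Figure D4:**
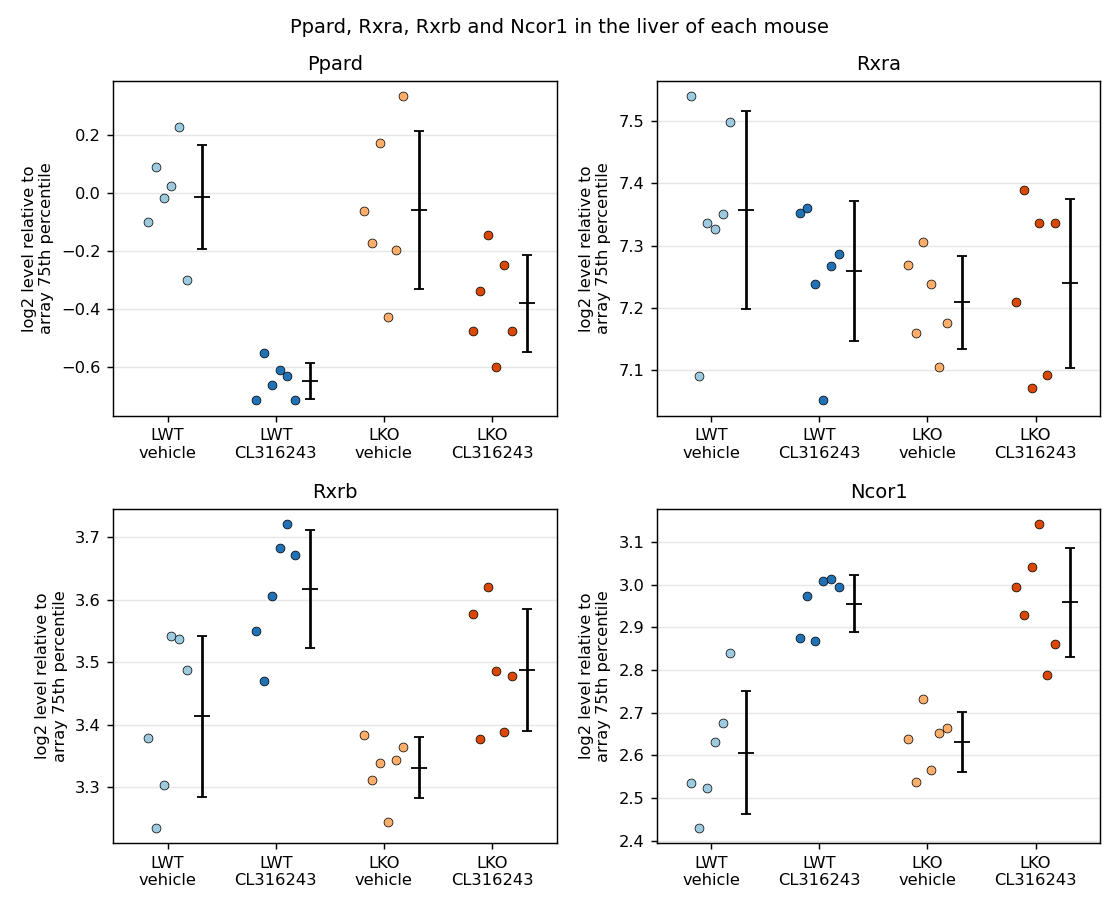
Log2 level relative to the array's 75th percentile (y axis) of Ppard, Rxra, Rxrb and Ncor1 in the 4 groups (x axis); each point is 1 of 6 mice per group, and the black bar is the mean with its SD. Ppard is lower and Ncor1 higher with CL316243 in both genotypes, and the Rxra groups overlap.

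Over all 25 kept probes, 11 were called with CL316243 in LWT (37.6% of all 32037 kept probes), 12 in LKO (41%) and 8 between the responses (5.96%). The 12 in LKO include 1 Ncor1 probe on the opposite strand. The 8 called between the responses were both probes of Ppara, of Ppargc1a and of Ppargc1b, the kept Pparg probe and the third Rxrb probe. For Ppara, Ppargc1a and Ppargc1b both probes of a gene lay on the same side of 0. With CL316243 the genotypes differed for 8 of the 25, against 15.4% of all probes.

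**Figure D5:**
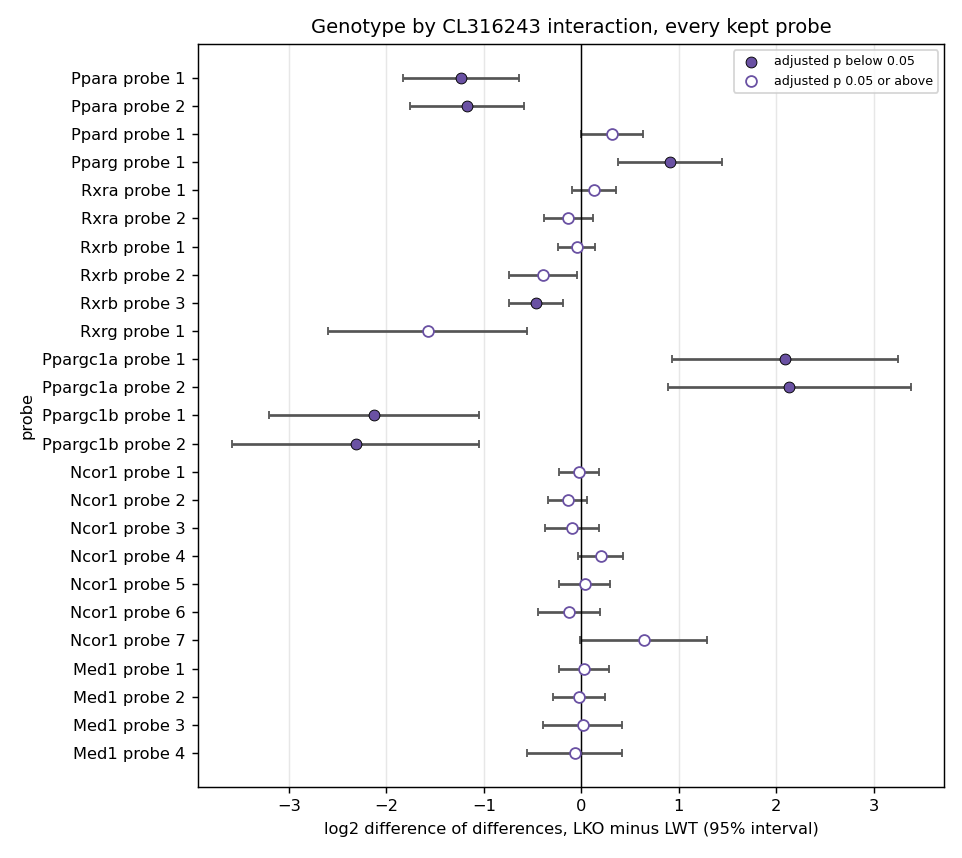
Difference between the CL316243 responses of LKO and LWT on the log2 scale (x axis) for each of the 25 kept probes (y axis). Points are limma estimates over 24 mice, bars 95% intervals, and filled points have an adjusted p below 0.05; both probes of Ppara and of Ppargc1b lie below 0 and both of Ppargc1a above.

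The genes whose levels followed a member most closely over the 24 mice were taken from 14040 named genes, by Pearson r, which reflects group differences shared by the genes as well as mouse to mouse variation. Ppara was followed by Lpcat3 (r = 0.96), an enzyme of phospholipid remodelling, and by Cpox (r = 0.96), an enzyme of haem synthesis. Like Ppara, these had a log2 difference above 0 with CL316243 in LWT and below 0 in LKO, with 0.49 and -0.77 for Lpcat3 and 0.73 and -0.68 for Cpox. Pparg was followed by Gabarapl1 (r = 0.88), Osgin1 (r = 0.82) and Trim12a (r = 0.81). Osgin1 differed with CL316243 by -1.08 in LWT and 1.42 in LKO. Ppargc1a was followed by Msi2 (r = 0.82), Pitpnc1 (r = 0.81) and Klf3 (r = 0.80), and Ppargc1b by Adap2 (r = 0.92), Trp53i13 (r = 0.92) and Glyctk (r = 0.91). These coefficients describe 24 arrays that share their groups.

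Other genes of the pathway were counted in lists, beside a median over all genes of 0.01 in LWT, 0.03 in LKO and 0.03 for the difference of responses. These lists were chosen with earlier results of these data known, so their counts are a description and not an independent test. Of 48 PPAR target genes, 46 rose and 0 fell with CL316243 in LWT by limma (median 1.31; 0 fell at an unadjusted p below 0.05), where 18.9% of all genes rose and 19.4% fell. In LKO 20 rose and 4 fell (median 0.25), against 20.9% and 19.4% of all genes. For 31 of the 48 the LKO response was lower than the LWT response and for 0 higher (median -0.98; 0 higher at an unadjusted p below 0.05), against 3.24% and 2.17% of all genes. Under vehicle 20 of the 48 were lower and 2 higher in LKO, against 0.778% and 0.398% of all genes. With CL316243 42 were lower and 0 higher by limma (0 at an unadjusted p below 0.05), against 8.17% and 7.74%. Cidec, which coats lipid droplets, rose by 7.14 (adjusted p 3.89e-12) in LWT and 3.86 (adjusted p 6.02e-08) in LKO. Acot2, a mitochondrial acyl-CoA thioesterase, rose by 6.97 (adjusted p 3.35e-15) and 1.73 (adjusted p 7.84e-06), and its close paralog Acot1 can share its signal. Cyp4a14, a fatty acid hydroxylase with near-identical relatives, rose by 7.02 (adjusted p 1.42e-10) in LWT and 1.61 (adjusted p 0.00662) in LKO. Ehhadh, a peroxisomal oxidation enzyme, rose by 3.98 (adjusted p 3.35e-15) in LWT and fell in LKO, at -0.80 (adjusted p 8.42e-05).

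Of 17 PGC-1α target genes of mitochondria and gluconeogenesis, 1 rose and 3 fell in LWT (median 0.04), and 1 rose and 5 fell in LKO (median -0.05). That is 23.5% and 35.3% called, below the 38.3% and 40.3% of all genes. Cycs, the cytochrome c of respiration, rose by 0.62 (adjusted p 9.92e-07) in LWT and 0.20 (adjusted p 0.0304) in LKO, and was the 1 gene of the list whose responses differed, by -0.42 (adjusted p 0.019). Esrra, the orphan receptor ERRα that PGC-1 proteins bind, fell in LWT (-0.54, adjusted p 0.000178) and in LKO (-0.67, adjusted p 1.92e-05). Of 14 transcription factors bound by PGC-1 proteins, 5 rose and 4 fell in each genotype (medians -0.06 and -0.20), which is 64.3% called in each, against 38.3% of all genes in LWT and 40.3% in LKO. Srebf1, the lipogenic factor that PGC-1β coactivates, fell in LWT (-1.96, adjusted p 3.34e-06) and in LKO (-3.21, adjusted p 1.57e-08), and its responses differed by -1.25 (adjusted p 0.0445). Mlxipl fell in LWT (-0.80, adjusted p 2.67e-05) and in LKO (-0.37, adjusted p 0.021). Mef2a rose by 0.47 (adjusted p 3.66e-05) in LWT and 0.37 (adjusted p 0.000512) in LKO, and Nrf1 by 0.44 (adjusted p 0.000319) and 0.43 (adjusted p 0.000404).

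Of 16 other coactivators, 4 rose and 3 fell in LWT (median -0.01) and 5 rose and 3 fell in LKO (median 0.10). The shares called, 43.8% and 50%, lie near the 38.3% and 40.3% of all genes. Pprc1, the third PGC-1 family member, rose by 1.32 (adjusted p 4.23e-05) in LWT and 1.22 (adjusted p 0.000106) in LKO, and Ncoa6 rose by 0.67 (adjusted p 5.27e-05) and 0.79 (adjusted p 1.04e-05). Cited2 fell in LWT (-1.20, adjusted p 3.12e-06) and in LKO (-0.62, adjusted p 0.00291), as did Kat2b, at -0.71 (adjusted p 0.000245) and -0.35 (adjusted p 0.0417). Sirt1, the deacetylase that acts on PGC-1α, rose by 0.25 (adjusted p 0.0194) in LWT and 0.78 (adjusted p 3.47e-07) in LKO, and its responses differed by 0.53 (adjusted p 0.00599). Of 12 other corepressors and partners, 2 rose and 5 fell in LWT (median -0.15) and 3 rose and 4 fell in LKO (median -0.15), 58.3% called in each against 38.3% and 40.3% of all genes. Tbl1x and Tbl1xr1, paralogs that join NCoR1 to its complex, went opposite ways in LWT, at -0.90 (adjusted p 6.17e-07) and 1.41 (adjusted p 2.86e-08). In LKO they lay at -0.16 (adjusted p 0.22) and 1.15 (adjusted p 8.13e-07), and the responses of Tbl1x differed by 0.74 (adjusted p 0.00296). Nrip1 rose by 0.63 (adjusted p 0.000179) in LWT and 0.41 (adjusted p 0.00752) in LKO, and Rbl1 fell in LWT (-0.86, adjusted p 0.000314) and in LKO (-0.53, adjusted p 0.0141).

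Of 31 other Mediator subunits, 11 rose and 5 fell in LWT (median 0.14), where 18.9% of all genes rose and 19.4% fell. In LKO 12 rose and 4 fell (median 0.14), against 20.9% and 19.4%. Med7 rose by 0.53 (adjusted p 0.000132) in LWT and 0.36 (adjusted p 0.00397) in LKO, and Med13l by 0.41 (adjusted p 0.00755) and 0.81 (adjusted p 1.33e-05). Med19 fell in LWT (-0.36, adjusted p 0.000832) and in LKO (-0.29, adjusted p 0.0045). Cdk19 fell in LWT (-0.49, adjusted p 0.0063) and lay at -0.21 (adjusted p 0.226) in LKO. The responses differed for 3 subunits (9.68%, against 5.41% of all genes), among them Med28 at 0.35 (adjusted p 0.0132) and Med9 at -0.49 (adjusted p 0.0345). Of 12 RXR partners outside the PPARs that were tested (Vdr did not pass the filter), 3 rose and 3 fell in LWT (median -0.13) and 3 rose and 5 fell in LKO (median -0.36), 50% and 66.7% called against 38.3% and 40.3% of all genes. The responses differed for 0 of them by limma (1 higher and 2 lower at an unadjusted p below 0.05), while 5.41% of all genes were called there. The orphan receptor Nr4a1 rose by 0.99 (adjusted p 0.023) in LWT and 2.57 (adjusted p 4.76e-06) in LKO, with a difference of responses that did not pass, at 1.58 (adjusted p 0.0534). With CL316243 its level was higher in LKO, by 1.54 (adjusted p 0.00233). Nr4a2 rose by 1.07 (adjusted p 0.00951) in LWT and 1.42 (adjusted p 0.00103) in LKO. The retinoic acid receptors Rara (-0.63, adjusted p 0.00314) and Rarb (-0.92, adjusted p 0.0115) fell in LWT, and in LKO they lay at -0.39 (adjusted p 0.0579) and -0.63 (adjusted p 0.0764).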

How the data were processed

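The authors' scanner output gives linear, background-subtracted intensities per spot, made with Agilent Feature Extraction (version 10.10.1.1 per the file headers), for 24 arrays, 1 per mouse by the labels. The deposited series table holds log2 values. Tested on the files, they lay a median of 0.000254 from log2 median intensities after quantile normalization, over 31367 probes. Limma is named in the submitters' processing notes, without a version.

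Spots marked as outliers were removed and replicate spots averaged. Log2 processed intensity was set relative to the 75th percentile of its array. Probes were kept if at least 4 of the 6 mice in some group were well above background and each group had 3 values or more (32037 probes, 21331 genes, the brightest kept probe standing for its gene). No value of the 10 genes was missing, and 2 dim probes were tested by exact permutation only. Limma 3.58.1 (R 4.3.3, with the R package data.table at version 1.17.8) fitted 1 mean per group with 20 residual degrees of freedom, and p-values were Benjamini-Hochberg adjusted within each of 5 comparisons. The number of arrays limits the precision. On simulated data with 200 of 21331 genes changed, the test of the difference of responses recovered 26% of genes at a log2 change of 0.5 and 86% at 2. The simulation drew independent normal noise and changed LKO CL316243 only, whereas 1153 genes were called for this difference in the data. Recovery in the data can therefore differ. Promoters were searched with Python 3.11.15.

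All 10 genes are named. Each list is named by its 2 largest rises and 2 largest falls called in LWT and its 2 smallest adjusted p-values called for the difference of responses. For Ppara, Pparg, Ppargc1a and Ppargc1b the 3 most similar named genes are given. A few genes that this rule names are not reported here. The genes and lists were chosen with earlier results of these data known. Alternatives covered background correction, normalization, filters, blocks, weights, choice of probe and each mouse left out.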

Additional observations from a re-analysis of the deposited data

Results flagged for a closer look

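Within 6 groups of a gene, the highest or lowest of 6 mice lay far from the rest (Dixon's 95% criterion for the gap over the group's range). That is 6 of 40 gene groups, and chance gives about 5% of them; over all 27 probes it was 13 of 108. Ppara was low in CL316243 replicate 3 of LWT (5.70, the next at 6.19) and in CL316243 replicate 3 of LKO (3.06, the next at 4.35). Rxrg was low in vehicle replicate 3 of LWT (-0.032, the next at 0.76) and in vehicle replicate 5 of LKO (0.60, the next at 0.89). Ppargc1a was high in CL316243 replicate 1 of LWT (0.77, the next at -1.26), and Ppargc1b was low in CL316243 replicate 3 of LKO (-3.29, the next at -0.86).

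For 4 genes the response to CL316243 differed between genotypes by the interaction term in limma. The LKO response minus the LWT response was -1.23 for Ppara (adjusted p 0.012), 0.91 for Pparg (adjusted p 0.0397), 2.09 for Ppargc1a (adjusted p 0.0282) and -2.13 for Ppargc1b (adjusted p 0.0163).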

How the results depend on the processing

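No result for the 10 genes changed direction among those called. Of 83 counts of called genes under alternatives, 76 stayed within 1.5 times the count reported, as did 69 of 72 with 1 mouse left out. Of 830 gene results under alternatives 795 stayed on the same side of the threshold, as did 680 of 720 with 1 mouse left out. The LWT count fell from 5 to 3 with centring on the median, and to 2 with an added 1.5-fold change, which left 3 of 6 in LKO because it asks for larger changes. The count of differing responses fell from 4 to 2 with no filter on dim probes. Under vehicle 1 gene, Ppara, was called with array weights (adjusted p 0.000854), with only the groups compared in the fit (adjusted p 0.00236) and with the replicate number as a block (adjusted p 0.0341); the causes were not tested. With 1 mouse left out, the counts ranged from 4 to 5 in LWT, 4 to 7 in LKO, 2 to 4 for differing responses, 0 to 0 under vehicle and 5 to 5 with CL316243. The differing responses were 2 without LWT CL316243 replicate 2, without LWT CL316243 replicate 5 and without LKO CL316243 replicate 2. Of 36 pairs of mice with the same replicate number, 11 correlated above 0.1 in their deviations (-0.18 to 0.42). Between the CL316243 groups of LWT and LKO 3 of 6 pairs did, with a median of 0.16. Mice of different numbers were not compared, so whether the numbers pair the mice cannot be told. With the replicate block, 5, 6, 5, 1 and 5 of the genes were called in the 5 comparisons, with Rxrg added to the differing responses (adjusted p 0.0188).

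Over all genes, centring on the median moved the share of higher calls in LKO from 51.9% to 41% and that of the differing responses from 40.1% to 27.1%. Calls in LWT went from 8180 to 3801 and in LKO from 8596 to 3885 with the added 1.5-fold change. With CL316243 the genotype calls went from 3393 to 1627 with that change and to 2203 with only the groups compared. Under vehicle they went from 251 to 167 with no filter and 635 with array weights. The differing responses went from 1153 to 664 and 2158 with the same alternatives. Tested by itself, every kept probe gave 13125 calls in LKO and 1908 for the differing responses, over more tests. Signal over background limits the dimmest probes: those of Pparg and Ncor1 that were not fitted were well above background in 2 and 9 of 24 mice.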
